A study of Homo sapiens with 16 samples.

Results

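The replication-dependent histone genes were followed by subtype in HMC3 cells, a human microglial cell line, that were either wild type or labelled as a knockout of METTL3. METTL3 is the catalytic subunit of the enzyme that writes N6-methyladenosine on RNA. Members were taken by symbol: genes named as clustered H2A, H2B, H3 or H4 copies, and H1-1 to H1-6, with 13 pseudogenes left out. This gave 66 of the 60669 genes in the tables, of which 6 encode the linker histone H1, 15 encode H2A, 19 encode H2B, 11 encode H3 and 15 encode H4. The 16 libraries came from cells with no treatment named in the labels. Smart-seq2, which selects polyadenylated RNA, was used for 5 wild-type and 5 knockout-labelled libraries, and these enter here as 1 comparison in the authors' deposited table. For the other 3 wild-type and 3 knockout-labelled libraries ribosomal RNA was depleted and a directional kit was used, and they carry a TPM value per library, which is a gene's share of the transcripts after division by its length. The labels do not say whether the knockout is 1 clone, which guide or deletion was used, or whether replicates are separate cultures, so p-values measure only the spread between these samples, which may be technical.

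Replication-dependent histone genes supply the proteins that package newly copied DNA, and most are transcribed in S phase from clusters in which many near-identical copies sit side by side. Their mRNAs lack introns and, unlike other mRNAs, normally end without a poly(A) tail: the U7 small nuclear ribonucleoprotein and the stem-loop binding protein SLBP direct a cut just after a short hairpin. The hairpin then takes over the roles of a tail in export, translation and the rapid decay that follows when DNA synthesis stops. Some copies also give a polyadenylated form that runs past the hairpin, as in cells that have left the cycle.

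The hairpin is shown first because it stands in place of the tail that poly(A) libraries select for, and because its letters set the H4 genes apart. Of 206694 GENCODE 29 transcripts, 213 (0.103%) held a match to the histone stem-loop, and they included transcripts of 29 of the 66 members. For the other 37 members the model at hand is mostly a coding sequence and no match was found in it. The stretches below run 5′ to 3′ in the transcript, with the hairpin of 16 bases in capitals.
H4C2 stem-loop: tccaatGGCCCTTTTCAGGGCCgcccac
H4C9 stem-loop: taaaaaGGCCCTTTTTAGGGCCcctaag
H2BC9 stem-loop: cccaaaGGCTCTTTTCAGAGCCacttaa
H2BC7 stem-loop: cccaaaGGCTCTTTTAAGAGCCacccac
H2AC11 stem-loop: accaacGGCTCTTTTCAGGGCCacccac
H3C6 stem-loop: tccaaaGGCTCTTCTCAGAGCCaacca
The H4 hairpins were of 2 forms, which differ in the loop: that of H4C2 was shared by H4C5, H4C8, H4C11 and H4C16, and that of H4C9 by H4C14 and H4C15. None of the H4 forms occurred in another subtype. The form of H2BC9 was found in 15 members of H2A, H2B and H3, and the form of H2BC7 in H2BC4, H2BC5 and H3C8. H2AC11 and H3C6 each had a form of their own. Of the 24 tested members with a hairpin in a GENCODE 29 transcript, 14 were called higher and 4 lower in the rRNA-depleted libraries. These calls are by the test described below, and the median log2 change was 1.38. Of the 28 without, 17 were called higher and 5 lower, with a median of 1.04. The 28 include H4C12 and H2AC14, which passed the filter of that test through 1 group only. The split goes by transcript and not by the length behind the TPM values. For H2BC9, H2BC7 and H2AC8 that length was 381, 381 and 393 bases, while the hairpin begins at base 405, 449 and 443 of the transcript. The split therefore does not separate genes measured with a hairpin from genes measured without. The shares over all tested genes were 22.9% higher and 12.4% lower.

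The RefSeq promoter table (GRCh38.p14) held 60 of the 66 members, and 3 motifs were searched on both strands of the 250 bases before each start. The octamer ATTTGCAT (or ATGCAAAT), the site read by the transcription factor OCT1, was present in 11 of 14 H2A and 14 of 18 H2B promoters and in 0 of the 6 H1, 9 H3 and 13 H4 promoters, against 1.63% of all 35116 promoters. CCAAT (or ATTGG), the site of the NF-Y complex, was present in all 6 H1, 14 H2A, 18 H2B and 9 H3 promoters but in 3 of 13 H4 promoters, against 32.0% of all promoters. TATAAA (or TTTATA) was present in 3 H1, 10 H2A, 12 H2B, 8 H3 and 7 H4 promoters, against 10.7% of all. A match is a run of letters and not a measured site. An octamer between neighbouring starts read in opposite directions can lie in both windows and is then counted for both genes. Such an octamer ended 122 and 115 bases before the starts of H2AC6 and H2BC4, and 111 and 103 before those of H2AC7 and H2BC7. The H2A count is therefore not a count of sites separate from those of H2B. The 150 bases before the start are printed for the gene that fell most among members with reads in both groups and for 3 of the H2B genes that rose most, with the H2A partner of 1 of them, and the octamer and CCAAT matches are in capitals.
H4C2 promoter, chr6:26027284-26027433 (minus strand): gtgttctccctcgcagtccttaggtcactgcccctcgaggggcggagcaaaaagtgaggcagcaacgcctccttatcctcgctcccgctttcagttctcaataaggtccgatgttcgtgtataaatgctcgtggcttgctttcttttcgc
H2BC11 promoter, chr6:27132796-27132945 (minus strand): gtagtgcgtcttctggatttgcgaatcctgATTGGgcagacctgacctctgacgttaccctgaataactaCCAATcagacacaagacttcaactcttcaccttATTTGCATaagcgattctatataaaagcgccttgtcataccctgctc
H2AC11 promoter, chr6:27132893-27133042 (plus strand): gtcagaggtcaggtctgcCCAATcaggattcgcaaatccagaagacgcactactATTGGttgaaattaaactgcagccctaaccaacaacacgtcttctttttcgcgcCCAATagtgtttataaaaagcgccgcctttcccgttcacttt
H2BC21 promoter, chr1:149886683-149886832 (minus strand): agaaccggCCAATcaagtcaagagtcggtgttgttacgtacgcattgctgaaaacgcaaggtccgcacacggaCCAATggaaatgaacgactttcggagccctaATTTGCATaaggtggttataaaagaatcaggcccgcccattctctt
H2BC9 promoter, chr6:26251464-26251613 (plus strand): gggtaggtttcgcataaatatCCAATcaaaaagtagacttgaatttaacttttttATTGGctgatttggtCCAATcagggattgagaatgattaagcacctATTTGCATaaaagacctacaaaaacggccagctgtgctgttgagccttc
The H4C2 stretch held neither motif. In the 3 H2B promoters the octamer ended 38 to 41 bases before the start. H2AC11 and H2BC11 are read in opposite directions from neighbouring starts, so their promoters are the 2 strands of 1 stretch and part of the printed letters is the same sequence. The octamer that ended 39 bases before the H2BC11 start lay 200 bases before the H2AC11 start and is outside the H2AC11 letters shown.

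The depth recovered from TPM and gene lengths was low, at 266157 to 1267171 reads per library, and 2 of the 3 knockout-labelled libraries were the deepest. Knockout-labelled libraries 1 and 2 differed by no more than sampling noise (chi-square of 1.02 per degree of freedom over 10119 degrees of freedom) and were counted as 1 sample, leaving 3 wild-type and 2 knockout-labelled samples. METTL3 mRNA, which checks the labels, had 25.4 to 31.6 TPM with the wild-type label and 39.2 to 42.7 TPM with the knockout label (log2 change 0.48, SE 0.19, limma adjusted p = 0.106), and the change was -0.29 (limma adjusted p = 0.403) with the GC trend removed, so the levels do not show the loss that the label names and all groups are called by their label. Of 14 microglial markers, 10, among them AIF1, CX3CR1, P2RY12 and TMEM119, were listed at 0 in all 6 libraries. The summed level of 9 fibroblast and pericyte markers moved with the label, from 10359 to 12827 TPM in wild type and 1162 to 1308 TPM in knockout-labelled libraries, mostly COL1A1. Of its 5 tested genes 3 were called lower and THY1 was called higher (log2 change 1.05, limma adjusted p = 0.00256). Among markers of other cell types KRT18 and KRT8 of epithelium were called lower (-1.15 and -1.99). SNAP25 of neurons was called higher (2.86, from 0, 0 and 1.78 TPM in wild type to at most 9.79 TPM). The knockout-labelled libraries alone took SNAP25 past the filter of the test described below, so part of its difference was built in. The authors' deposited table called KRT18 and KRT8 lower too (-0.94 and -2.38) but did not call SNAP25 (0.67, SE 0.299). The part of these marker shifts in the results below was not tested.

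Histone transcripts were abundant in the rRNA-depleted libraries. The 66 members together made up 4.30% to 4.48% of TPM in the wild-type libraries and 3.69% to 3.91% in the knockout-labelled libraries, on 2161 to 7292 reads per library. The sum was 43976 ± 890 TPM (SD, n = 3) in wild type and 38065 ± 1518 TPM (SD, n = 2) with the knockout label. The subtypes shifted within this total: H4 and H1 held most of the histone TPM in wild type, and in the knockout-labelled libraries H2B reached the level of H4. In bulk RNA a smaller share of cells in S phase and less histone RNA per cell cannot be told apart.

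Wild-type libraries 1 to 3 held 25010, 24432 and 24365 TPM of H4 transcripts, which compares with 9549, 9252 and 10346 TPM in knockout-labelled libraries 1 to 3. H2B summed to 2051, 1669 and 1866 TPM in wild type and to 9532, 9514 and 9978 TPM with the knockout label. The groups did not overlap in either subtype, and the ratio of knockout-labelled to wild-type means was 0.401 for H4 and 5.24 for H2B. H1 went from 9296, 9992 and 9347 TPM to 5706, 5819 and 5759 TPM, a ratio of 0.604. H3 went from 2330, 2068 and 2058 TPM to 5042, 5052 and 5697 TPM, a ratio of 2.50. H2A stood at 6106, 4867 and 6471 TPM in wild type and at 7292, 7225 and 7359 TPM with the knockout label, a ratio of 1.26 that became a log2 ratio of -0.021 with median ratio scaling of the libraries. The wild-type H2A values spread over a range about as wide as the distance between the groups, so of the 5 subtypes H2A moved least.

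The histone pool was also spread over more genes in the knockout-labelled libraries. The 3 highest members, H4C2, H1-4 and H4C5, held 63.4% of the mean histone TPM in wild type, and the 3 highest with the knockout label, H4C5, H1-2 and H1-4, held 17.9%. The number of members with a mean above 1000 TPM was 10 in wild type and 17 with the knockout label. Of the highest 10 in each group 5 were in both, namely H1-2, H1-4, H1-5, H4C2 and H4C5.

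Since subunits of 1 nucleosome are set side by side here, ratios within a library do not depend on its scaling. The summed H2B level was 0.336, 0.343 and 0.288 of the H2A level in the wild-type libraries and 1.31, 1.32 and 1.36 of it in the knockout-labelled libraries. H4 over H3 was 10.7, 11.8 and 11.8 in wild type and 1.89, 1.83 and 1.82 with the knockout label. The H2B to H4 ratio rose from 0.0756 ± 0.00688 (SD, n = 3) to 0.989 ± 0.0346 (SD, n = 2). H3C2, H3C3, H2AC18 and H2AC19 are not in these sums. H3C14 and H3C15, with no stretch of 50 bases found in their transcripts alone, were listed at or near 0. The ratios therefore do not give the proportions of all H3 or all H2A mRNA to the other subtypes. These ratios compare mRNA shares summed over gene models of unequal completeness, and each differed between the groups by many times its spread between libraries.

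Single members were tested with limma on log2(TPM + 1) over 14789 genes, with a call at an adjusted p under 0.05. Of the 66 members 52 passed the filter of 1 TPM in 3 libraries, and of these 31 were called higher and 9 lower in the knockout-labelled libraries, and 12 were not called. Of all tested genes 35.3% were called, 22.9% higher and 12.4% lower. The median log2 change was 1.35 for the members and 0.41 for all tested genes. The median of the members was 1.15 with members at the read floor set to their bound. Median ratio scaling, which moved the median of all genes to 0.11, gave 28 members higher and 12 lower with a median of 1.01. H4C12 and H2AC14 passed the filter through 1 group only, so their difference was built in. Taken by sample, 34 members had both knockout-labelled samples above all wild-type ones and 12 had both below, against 41.1% and 21.6% of all tested genes. Without knockout-labelled library 3, which leaves 1 averaged sample with that label, 9 members were called higher and 3 lower, while the median was 1.19. In that fit calls over all genes also dropped, from 5220 to 1663, and no called member changed its direction.

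**Figure D1:**
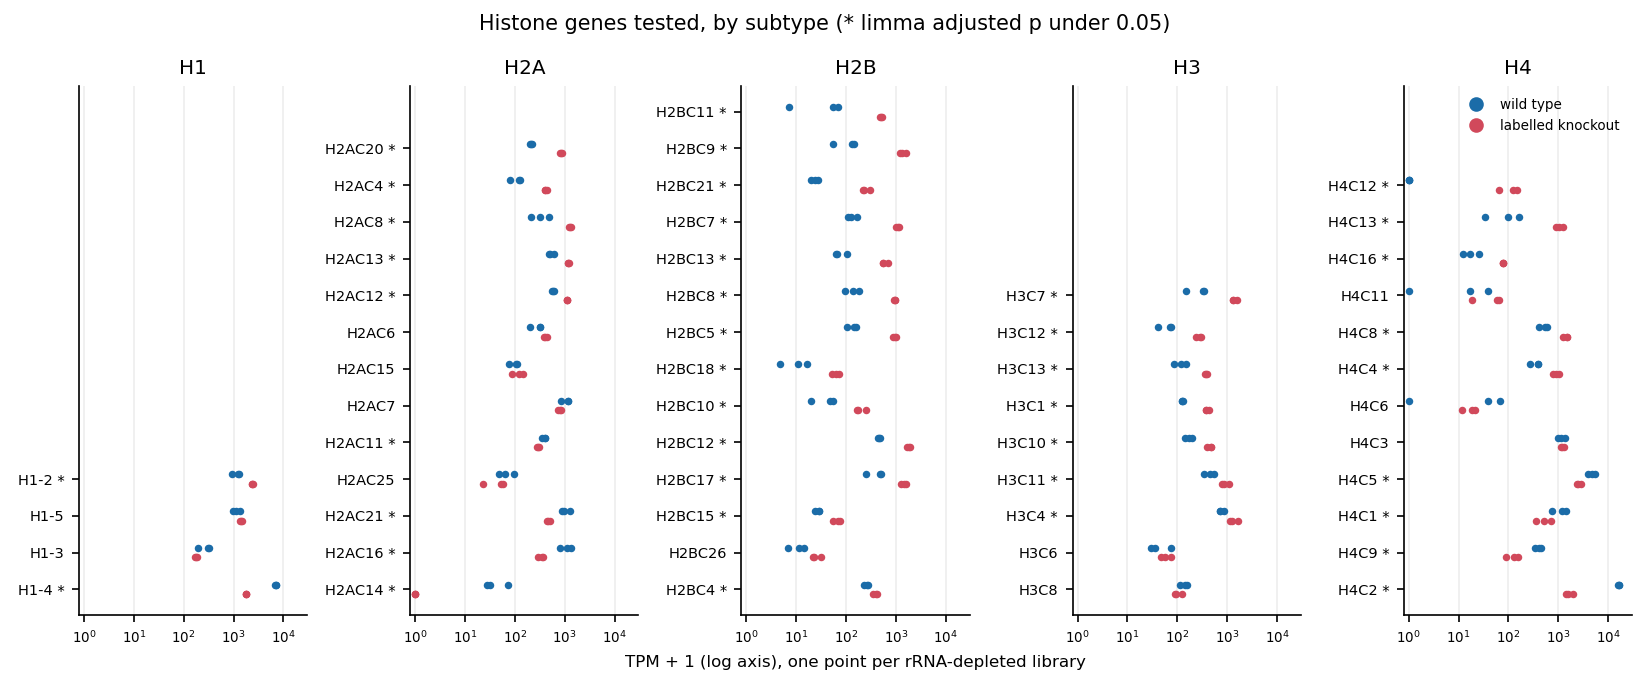
TPM + 1 on a log axis for the 52 tested histone genes in each rRNA-depleted library, 1 panel per subtype, genes ordered by log2 change; blue points are wild-type and red points knockout-labelled libraries, and an asterisk marks a limma adjusted p under 0.05. All 14 tested H2B genes have their red points to the right of their blue points, and H4C2 and H1-4 have theirs to the left.

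The 14 members left out of the test had few or no reads listed to them. H2AC1, H2AC17, H2BC1, H2BC12L, H2BC14, H3C15 and H4C15 were listed at 0 in all 6 libraries. H1-1, H1-6, H2BC3, H2BC6, H3C14, H4C7 and H4C14 held at most 2 reads in any library, and their highest value was 21.7 TPM for H4C7 in knockout-labelled library 3. H1-6, H2AC1 and H2BC1 are known from the testis. A count of 0 covers counting error only and allows up to 3 reads, which for a short histone gene such as H4C12 was worth 75.1 TPM on average in the wild-type libraries.

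H4, the core histone with the most conserved protein, was the most abundant subtype in wild type, and 1 gene made up most of it. H4C2 (chromosome 6, 26026815 to 26027252, minus strand, GENCODE 29 on GRCh38) stood at 16268, 16586 and 15609 TPM in wild-type libraries 1 to 3, on 1006, 702 and 1142 reads. In knockout-labelled libraries 1 to 3 it stood at 1446, 1595 and 1931 TPM, on 189, 255 and 131 reads. The groups lay far apart, and the log2 change was -3.24 (SE 0.16, limma adjusted p = 0.000879). H4C2 made up 36.8% ± 1.62 (SD, n = 3) of all histone TPM in wild type and 4.52% ± 0.583 (SD, n = 2) with the knockout label. Within H4 its share went from 65.7% to 17.4%. The H4 sum without H4C2 was 8448 ± 521 TPM (SD, n = 3) and 8147 ± 378 TPM (SD, n = 2), which overlap within their spread. In TPM as deposited the net fall of the H4 total therefore rested on this gene. The sum without H4C2 takes in 5 copies called higher and 3 called lower. Of its 50-base stretches 98.2% occurred in no other gene's transcripts.

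Other H4 copies moved in both directions. H4C5 was the next in level, at 4835, 3881 and 5526 TPM in wild type and at 2525, 2405 and 2877 TPM with the knockout label (log2 change -0.82, SE 0.19, limma adjusted p = 0.0256). H4C9 fell from 449, 344 and 412 TPM to 127, 86.8 and 155 TPM (-1.63, SE 0.20, limma adjusted p = 0.00462). H4C1 fell from 1180, 1393 and 748 TPM to 698, 518 and 352 TPM, with a limma adjusted p of 0.0477 that lies just under the threshold. None of these 3 overlapped between the groups, although H4C1 came close, and of 17 fits 10 called H4C1 lower and 13 called H4C5 lower.

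H4C13 was the largest H4 rise among copies with reads in both groups. It stood at 159, 33.2 and 95.9 TPM in wild type, on 7, 1 and 5 reads, and at 1042, 887 and 1221 TPM with the knockout label (log2 change 3.75, SE 0.65, limma adjusted p = 0.0111). H4C16, the H4 gene on chromosome 12, rose by 2.17, H4C8 by 1.42 and H4C4 by 1.42, with limma adjusted p-values of 0.00842, 0.0048 and 0.00639. H4C12 was at 0 in all wild-type libraries and at 64.5, 123 and 145 TPM with the knockout label, at least 1.59-fold higher against a floor of 3 reads per library. None of the 50-base stretches of H4C12 is its own, so its reads cannot be told from those of other H4 copies. H4C3 was not called (log2 change 0.08, SE 0.16), nor were H4C6 and H4C11, which had 0 to 8 reads per library. The median of the 12 tested H4 genes was 0.90, or 0.08 with members at the floor set to their bound, while the summed level was lower, so median and sum differ in sign.

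H1, the linker histone that binds DNA between nucleosomes, also turned on 1 gene. H1-4 (chromosome 6, 26156354 to 26157107, plus strand) stood at 6868, 7056 and 6976 TPM in wild type and at 1803, 1764 and 1800.4 TPM with the knockout label (log2 change -1.96, SE 0.11, limma adjusted p = 0.00105). The libraries of a group lay within a few percent of each other, and all 17 fits called it lower. H1-2 moved the other way, from 1269, 1241 and 923 TPM to 2360, 2402 and 2324 TPM (log2 change 1.05, SE 0.17, limma adjusted p = 0.00903). H1-4 thus fell from 73.0% to 31.1% of the H1 sum while H1-2 went from 11.98% to 40.8% of it, and H1-2 stood above H1-4 in all 3 knockout-labelled libraries. H1-5 was at 1154 ± 193 TPM (SD, n = 3) and 1432 ± 13.6 TPM (SD, n = 2) and was not called (0.32, limma adjusted p = 0.177). H1-3 was at 274 ± 72.6 and 178 ± 9.03 TPM and was not called either (-0.59, limma adjusted p = 0.129). Without H1-4 the H1 sum went from 2578 ± 311 to 3969 ± 14.8 TPM.

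H2B, which pairs with H2A in the outer dimers of the nucleosome, was the subtype in which each tested gene moved in the same direction. Of the 14 tested H2B genes 13 were called higher and 0 lower, against 22.9% of all tested genes called higher, and in all 14 the knockout-labelled libraries lay above the wild-type ones. Their median log2 change was 2.81, and ratios of group means ran from 1.55 for H2BC4 to 13.3 for H2BC9. H2BC26, the exception, had a log2 change of 1.34 with a limma adjusted p of 0.0564. Over the alternatives 11 to 14 were called higher, other than the fit without knockout-labelled library 3, which called 5, and in each fit 0 were called lower.

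H2BC12 and H2BC17 had the highest levels. H2BC12 stood at 483, 462 and 439.97 TPM in wild type and at 1865, 1891 and 1661 TPM with the knockout label (log2 change 1.93, SE 0.10, limma adjusted p = 0.00102). Only 25.9% of the 50-base stretches of H2BC12 are its own. H2BC17 stood at 502, 244 and 471 TPM and at 1425, 1258 and 1593 TPM (1.92, SE 0.34, limma adjusted p = 0.0118). Both groups were well separated for each gene, and the wild-type spread was wider for H2BC17, which had 9 to 30 reads in those libraries.

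H2BC11 and H2BC9 had the largest rises. H2BC11 was at 67.1, 54.5 and 6.30 TPM in wild type, on 9, 5 and 1 reads, and at 497, 522 and 483 TPM with the knockout label (log2 change 4.04, SE 1.003, limma adjusted p = 0.0306). H2BC9 was at 130.1, 54.3 and 141 TPM and at 1205, 1323 and 1627 TPM (3.83, SE 0.44, limma adjusted p = 0.0039). The low wild-type library 3 widened the error of H2BC11, and H2BC9 moved from rank 35 of the 66 members in wild type to rank 7. H2BC21, H2BC7, H2BC13, H2BC8 and H2BC5 rose by 2.83 to 3.46, with limma adjusted p-values of 0.00257 or less. H2BC10 had 6 reads over all wild-type libraries together and 58 over the knockout-labelled ones. Pooled and put on the TPM scale, they were 4.78-fold higher with the knockout label (95% exact interval 2.07 to 13.6, for counting error only). H2BC4 rose least (0.64, SE 0.13, limma adjusted p = 0.016) and was called in 13 of 17 fits.

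H2A genes did not move together. Of 13 tested, 5 were called higher and 4 lower, against 22.9% and 12.4% of all tested genes. Among the lower ones H2AC14 passed the filter through the wild-type group only. The median log2 change of 0.36 lay near that of all genes and turned to -0.05 and -0.11 with the GC trend removed and with limma-voom. H2AC16 fell from 1316, 790 and 1112 TPM to 367, 348 and 296 TPM (log2 change -1.69, SE 0.24, limma adjusted p = 0.00629). H2AC20 rose from 218, 212 and 199.6 TPM to 842, 815 and 894 TPM (2.03, SE 0.10, limma adjusted p = 0.000872), and H2AC4 from 126, 79.0 and 122 TPM to 401, 404 and 444 TPM (1.98, SE 0.23, limma adjusted p = 0.00394). In each of these 3 genes the groups were clearly apart. Of H2AC20, 69.5% of the 50-base stretches are its own.

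H2AC13 and H2AC7 had the highest mean levels of H2A. H2AC13 rose from 507, 494 and 607 TPM to 1186, 1220 and 1168 TPM (log2 change 1.15, SE 0.12, limma adjusted p = 0.00325). H2AC7 stood at 1135, 843 and 1158 TPM and at 802, 739 and 838 TPM and was not called (-0.36, SE 0.17, limma adjusted p = 0.155). Reads of H2AC7 are shared, since 2.03% of its 50-base stretches are its own, and for H2AC13 the figure was 37.7%. H2AC8 and H2AC12 also rose, by 1.97 and 0.91, while H2AC21 fell by 1.15 and H2AC11 by 0.40, the last with a limma adjusted p of 0.0426. H2AC14 was at 73.2, 26.7 and 30.9 TPM in wild type, on 4, 1 and 2 reads, and at 0 in all knockout-labelled libraries, at least 1.18-fold lower against the floor.

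H3, the histone with the most heavily modified tail, rose in most of its tested copies. Of 9 tested genes 7 were called higher and 0 lower, against 22.9% and 12.4% of all tested genes. The median was 1.40, and median ratio scaling gave 5 higher and 1 lower. H3C4 had the highest level, at 862, 705 and 728 TPM in wild type and 1231, 1120 and 1618 TPM with the knockout label (log2 change 0.86, SE 0.18, limma adjusted p = 0.0185). H3C7 rose most, from 345, 151 and 320 TPM to 1280, 1286 and 1571 TPM (2.47, SE 0.39, limma adjusted p = 0.00823), and H3C12 rose from 73.1, 40.1 and 69.5 TPM to 281, 293 and 242 TPM (2.14, SE 0.29, limma adjusted p = 0.0057). The groups did not overlap for any of the 3. None of the 50-base stretches of H3C4 are its own, and the H3C12 model overlaps that of H2AC17 on the same strand. H3C1, H3C10, H3C11 and H3C13 rose by 1.02 to 1.71. H3C8, with the knockout-labelled libraries at 122, 90.9 and 93.8 TPM against 115, 159 and 139 TPM in wild type, and H3C6, with 2 to 11 reads per library, were not called, and H3C8 was called lower under 3 of the alternatives.

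Many H2A and H2B genes lie head to head and share the DNA between their starts. Starts within 1000 bases of each other on opposite strands gave 11 such pairs, 218 to 330 bases apart, and in 8 of them both members were tested. The H2B change lay above that of its H2A partner in 8 of 8 pairs, with medians of 2.90 for H2B and 0.76 for H2A. Of the H2B partners 7 were called higher. Of the H2A partners 4 were called higher, 1 lower, and 3 were not called. The shares over all tested genes were 22.9% higher and 12.4% lower. The difference was largest for H2AC11 and H2BC11, at 4.44 on the log2 scale, and next for H2AC7 and H2BC7, at 3.34. It was 0.02 for H2AC6 and H2BC4, which had nearly the same level, 279 and 254 TPM in wild type and 419 and 394 TPM with the knockout label. H2BC11 had 9, 5 and 1 reads in wild type, and 2.03% of the 50-base stretches of H2AC7 are its own. The 2 largest differences are therefore uncertain. All differences within pairs are described and were not tested.

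**Figure D2:**
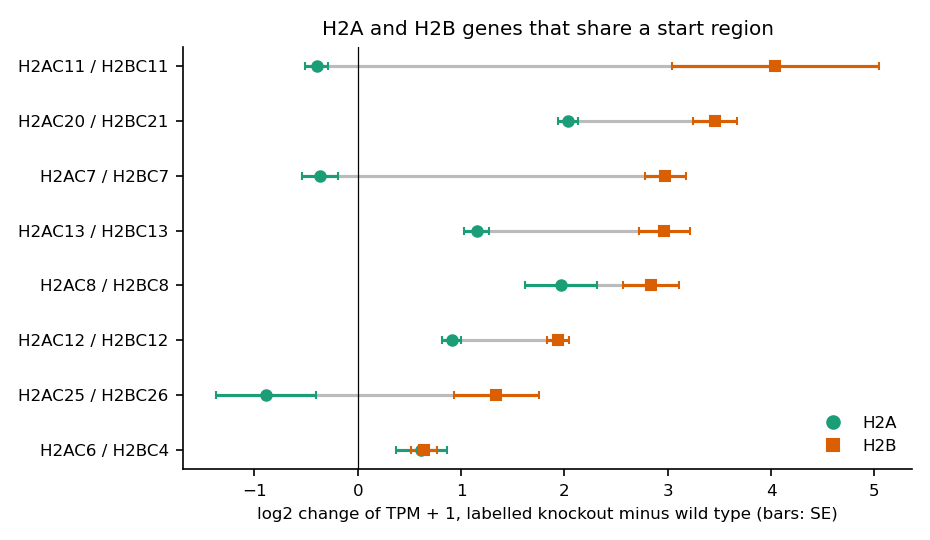
Log2 change of TPM + 1 (x axis, knockout-labelled minus wild type, bars are SE) for the 8 head-to-head pairs with both genes tested; green circles are the H2A and orange squares the H2B member. Each square lies to the right of its circle, by 0.02 for H2AC6 and H2BC4 up to 4.44 for H2AC11 and H2BC11.

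Members with and without the octamer are set side by side within a subtype. All 10 tested H2B genes with it were called higher (median 2.81), as were 3 of the 4 without it (median 2.09). Of 9 tested H2A genes with the octamer 3 were called higher and 4 lower (median -0.36), and of 3 without it 1 was called higher and 0 lower (median 0.36). Over all tested genes 22.9% were called higher and 12.4% lower, and with so few H2A genes the shares called higher lie near that background. The share called lower among H2A genes with the octamer lies above it. That count includes H2AC14, which passed the filter through the wild-type group only. An octamer shared by an H2A gene and its H2B partner counts for both in this split. By position, the 32 members between 25726132 and 26285638 on chromosome 6 gave 25 tested genes, 14 higher and 4 lower. The 21 between 27125897 and 27893843 gave 19 tested, 12 higher and 4 lower, and the 9 between 149782689 and 149887916 on chromosome 1 gave 5 tested, 4 higher and 1 lower. Across the 52 tested members the log2 change had a Spearman rho of -0.12 with GC content, against -0.37 across 14669 tested genes, which are not independent replicates.

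Near-identical copies limit what can be said of a single gene, since the authors' counting of reads that fit several genes is not given in the sources used here. For 19 members under 80% of 50-base stretches were their own. The 40 tested members at or above 80% gave 23 higher and 8 lower calls with a median of 1.20, and the 12 below it gave 8 higher and 1 lower with a median of 1.82. Of all tested genes 22.9% were called higher and 12.4% lower. The 12 include H4C12 and H2AC14, which passed the filter through 1 group only. Among H2B genes at or above 80%, 11 of 12 were called higher. Members with models up to 550 bases gave 20 higher and 6 lower of 32, and longer models gave 11 higher and 3 lower of 20. H2BC15 has a model of 5477 bases that overlaps H2AC15 and H2AC16, and its level may hold reads of those genes.

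The poly(A) libraries gave another view, because histone mRNAs without a tail are not selected in them. In the authors' deposited table the 66 members summed to 482 mean normalized counts, 0.0301% of the sum over all genes, while in the rRNA-depleted libraries they held 0.575% to 0.812% of reads. Of the 66 members 11 had a mean count of 0, 22 had a p-value but no adjusted p, and 33 had an adjusted p in the authors' deposited table. A positive log2 fold change in that table was read as higher in knockout, which the table itself does not state. H4C2, the most abundant histone transcript after rRNA depletion in wild type, had a mean count of 1.66 in the authors' deposited table and a log2 fold change of 0.01 (SE 1.04). By count per kilobase of model the highest members of the authors' deposited table were H4C8 at 114, H2BC12 at 89.1, H1-2 at 80.05 and H4C3 at 72.4. By count the highest of each subtype in the authors' deposited table were H1-2 at 51.4, H2AC6 at 58.1, H2BC12 at 33.96, H3C11 at 18.2 and H4C8 at 45.3. The longest H2AC6 transcript in GENCODE 29 runs 1128 bases past its hairpin.

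At an adjusted p under 0.05 the authors' deposited table called 1 of the 33 members higher and 3 lower. In the authors' deposited table as a whole, 19.9% of the 14009 genes with an adjusted p were called, 9.55% higher and 10.3% lower. H4C8 was higher in the authors' deposited table, by 1.22 on the log2 scale (SE 0.21, adjusted p 1.36e-07). H1-5 was lower at -1.20 (SE 0.38, adjusted p 0.0114), H1-2 at -0.61 (SE 0.19, adjusted p 0.0095) and H4C3 at -0.60 (SE 0.23, adjusted p 0.0493) in the authors' deposited table. H3C11, at -0.83 with an adjusted p of 0.0504 in the authors' deposited table, lay just past the threshold. H4C8 was thus called higher in both library types, and H1-2 was called higher after rRNA depletion and lower in the authors' deposited table. The median of the 33 members was -0.21 and that of all genes 0.02 in the authors' deposited table.

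No H2B gene was called from the poly(A) data. The authors' deposited table called none of its 11 H2B genes with an adjusted p, and 5 of their log2 fold changes were above 0, with a median of -0.18. H2BC11, H2BC5, H2BC12 and H2BC21, with mean counts of 22.9 to 33.96, had log2 fold changes of 0.24, -0.37, -0.35 and -0.30 with SE of 0.22 to 0.24 in the authors' deposited table. Over the 32 members tested in both library types, 7 were above 0 in both, 5 below 0 in both, 17 above 0 after rRNA depletion and below 0 in the authors' deposited table, and 3 the reverse. Spearman's rho over these 32 genes was 0.07, a description across genes that share libraries. Of the 33, 20 had mean counts under 10, so that many poly(A) values carry SE near 1 or above and a difference of moderate size was not detectable there.

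**Figure D3:**
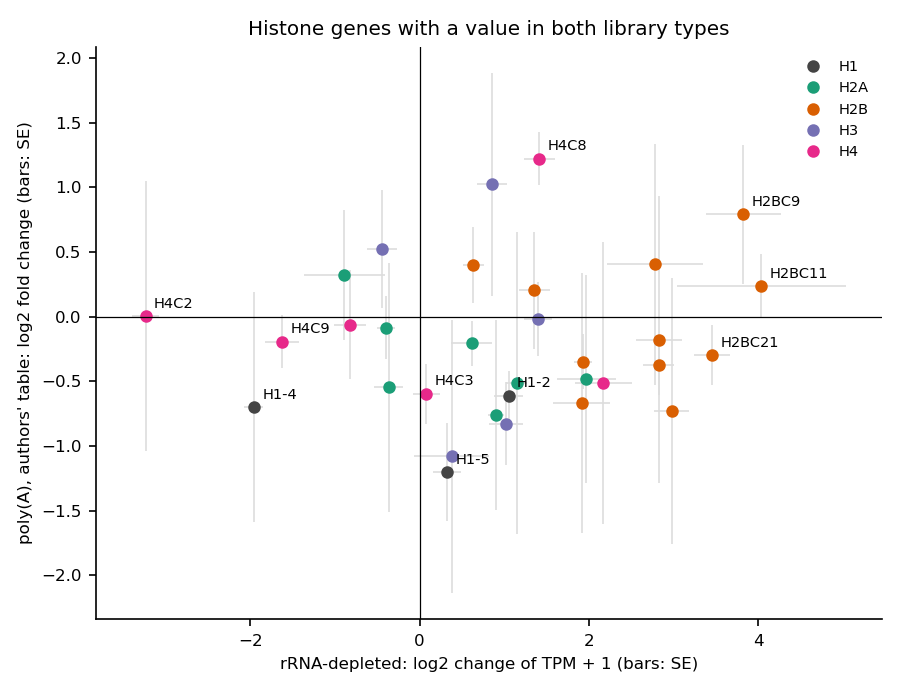
Log2 change after rRNA depletion (x axis, TPM + 1) against the log2 fold change in the authors' deposited poly(A) table (y axis) for the 32 histone genes with both; bars are SE and colours the subtypes. H2B points spread to the right along the x axis and stay near 0 on the y axis, H4C2 lies at -3.24 and 0.01, and H4C8 is higher on both axes.

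Genes that act on histone genes and their mRNAs were taken as lists. Of 9 genes for histone gene transcription 2 were called higher and 1 lower after rRNA depletion, shares near the 22.9% and 12.4% of all tested genes. Their median was 0.34 against 0.41 for all genes, and 0 of 9 were called in the authors' deposited table. NPAT, the coactivator that binds histone gene clusters, rose from 3.76, 8.24 and 5.56 TPM to 40.0, 34.2 and 52.3 TPM (log2 change 2.77, SE 0.40, limma adjusted p = 0.00676). NFYA, a subunit of the CCAAT-binding complex, rose by 2.70 (SE 0.48, limma adjusted p = 0.0122), and E2F1, an activator of S-phase genes, fell by 0.83 (SE 0.17, limma adjusted p = 0.0185). HINFP, the H4 promoter factor, and POU2F1, which encodes OCT1, were not called (-0.63 and 1.33, limma adjusted p = 0.227 and 0.0543). The authors' deposited table gave NPAT 0.23 (SE 0.14, adjusted p 0.259), NFYA 0.13 (SE 0.19, adjusted p 0.708) and E2F1 -0.63 (SE 0.32, adjusted p 0.158).

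Of 17 genes for 3′ end processing RNU7-1, the U7 RNA itself, was listed at 0 in all libraries. Whether these libraries can recover so small an RNA was not tested, so the 0 does not show that it is absent. Of the 16 tested 9 were called higher and 2 lower, against 22.9% and 12.4% of all tested genes, with a median of 1.01. SLBP, which binds the hairpin, fell from 234, 306 and 293 TPM to 179, 200.1 and 172 TPM (log2 change -0.61, SE 0.15, limma adjusted p = 0.0299). SLBP had the opposite sign in the authors' deposited table, at 1.10 (SE 0.42, adjusted p 0.0478). SNRPF and SNRPG, Sm proteins shared with spliceosomal particles, rose by 2.34 and 2.12 (limma adjusted p = 0.00817 and 0.0262), and SYMPK, a scaffold of the cleavage complex, fell by 0.53 (limma adjusted p = 0.041). CPSF3, the endonuclease that makes the cut, rose by 1.28 (SE 0.15, limma adjusted p = 0.00415). The authors' deposited table called 1 of 16 higher and 6 lower, against 9.55% and 10.3% of all its genes with an adjusted p. It gave SNRPF -0.72 (SE 0.14, adjusted p 5.97e-06) and SNRPG -0.25 (SE 0.09, adjusted p 0.037). SYMPK and CPSF3 were not called in it (0.28 and 0.19, SE 0.17 and 0.08, adjusted p 0.265 and 0.0554).

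Of 9 genes for histone mRNA translation and decay 3 were called higher and 0 lower, against 22.9% and 12.4% of all tested genes, with a median of 0.98: XRN1, a 5′ to 3′ exonuclease, rose by 1.70, ERI1, the exonuclease that trims the hairpin, by 1.53, and SMG1, a kinase that acts on UPF1, by 1.23 (limma adjusted p = 0.0174, 0.0162 and 0.0154). The authors' deposited table called 2 of these 9 higher, among them ERI1 (0.28, SE 0.10, adjusted p 0.0331), and 1 lower. XRN1 and SMG1 were not called in the authors' deposited table (0.36 and 0.34, SE 0.18 and 0.15, adjusted p 0.151 and 0.108). Of 12 chaperones and import factors 3 were called higher and 2 lower, shares near those over all tested genes. ASF1A, which hands H3 and H4 to assembly factors, was at 0, 0 and 2.38 TPM in wild type and at 26.6, 38.1 and 23.1 TPM with the knockout label (limma adjusted p = 0.00979). The knockout-labelled libraries alone took ASF1A past the filter, so part of its difference was built in. HAT1, which acetylates new H4, rose by 1.48 (limma adjusted p = 0.0276). MCM2, a helicase subunit that also binds histones, fell by 1.26 and CHAF1A, a subunit of the assembly factor CAF-1, by 0.80 (limma adjusted p = 0.00176 and 0.0114). MCM2 was lower in the authors' deposited table too (-0.40, SE 0.08, adjusted p 5.17e-05). The authors' deposited table did not call ASF1A (0.19, SE 0.14, adjusted p 0.407), HAT1 (-0.15, SE 0.07, adjusted p 0.149) or CHAF1A (-0.14, SE 0.19, adjusted p 0.680).

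Of 16 S-phase genes 7 were called higher and 3 lower after rRNA depletion, against 22.9% and 12.4% of all tested genes, and their median was 0.27 against 0.41 for all genes. MCM4, a subunit of the replicative helicase, fell by 0.97 (SE 0.12, limma adjusted p = 0.00473). TYMS rose by 1.19 (limma adjusted p = 0.0246), and CCNE2 went from 3.22, 2.35 and 5.45 TPM to 28.2, 19.3 and 38.2 TPM (limma adjusted p = 0.00977). The authors' deposited table called 1 of these 16 higher and 7 lower, against 9.55% and 10.3% of all its genes with an adjusted p, with a median of -0.25. It did not call MCM4 (-0.17, SE 0.08, adjusted p 0.105), TYMS (0.29, SE 0.43, adjusted p 0.710) or CCNE2 (-0.01, SE 0.14, adjusted p 0.979). Their part in the histone values was not tested.

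**Figure D4:**
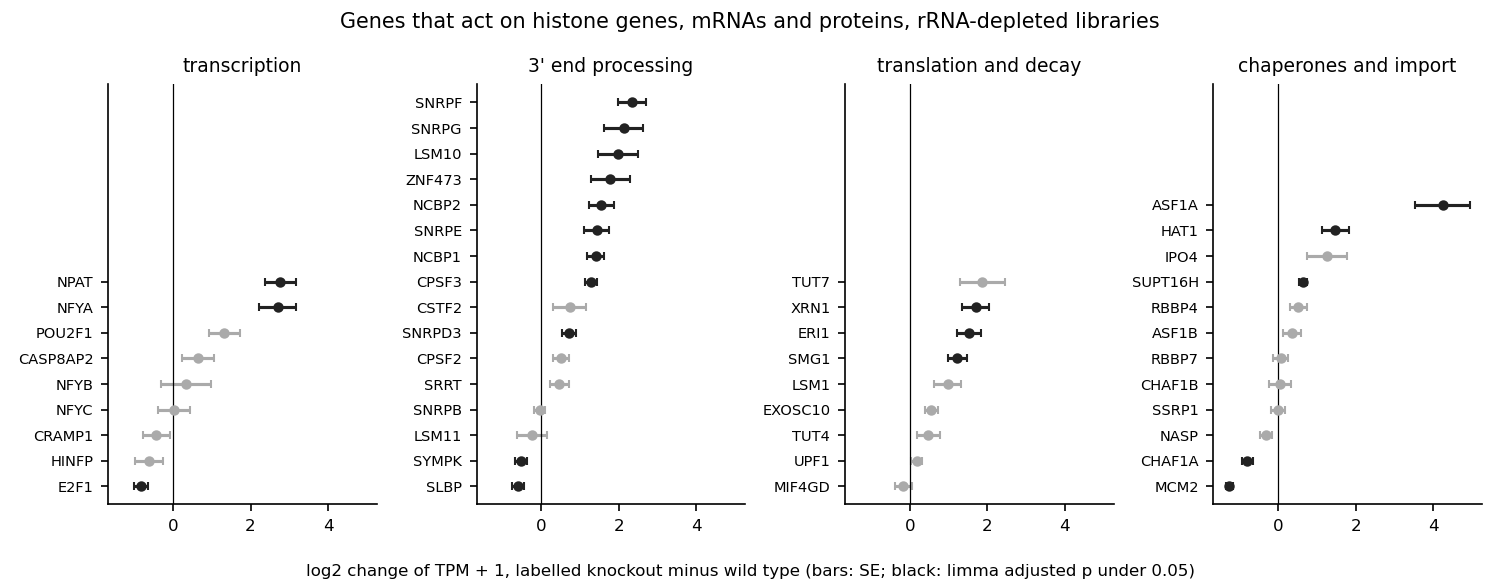
Log2 change of TPM + 1 after rRNA depletion (x axis, knockout-labelled minus wild type) with SE for the tested genes of 4 lists, 1 panel each; black points have a limma adjusted p under 0.05 and grey points do not. NPAT lies at 2.77 and NFYA at 2.70 at the top of the transcription panel, and SLBP at -0.61 at the foot of the processing panel.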

How the data were processed

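Members, lists and tests were chosen with earlier results of these data known. The authors deposited TPM per gene for each library made after rRNA depletion. For the poly(A) libraries they deposited a table of 1 comparison that, per the file headers, holds a log2 fold change and its SE, a p-value before and after adjustment, a test statistic, which is a score, and a mean normalized count, a signal over all poly(A) libraries. The submitters' processing notes name Trimmomatic, STAR, DESeq2 and hg38, without roles, and the annotation and counting rules are not given in the sources used here. Samples were grouped by genotype and library type in the labels, and 0 columns were left unused.

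Reads were recovered from TPM with GENCODE 29 lengths (93.8% of genes matched, 90.9% of values whole to within 0.02 reads). For 11 members whose authors' length differed, the shortest length that gave whole reads in all libraries was taken. Positions are from GENCODE 29. Genes with at least 1 TPM in 3 of 6 libraries entered a limma fit (limma 3.58.1, R 4.3.3, lmFit and eBayes with trend) of log2(TPM + 1), a scale that understates the change of low genes, with Benjamini-Hochberg adjustment over all 14789 genes. The limma step was tested on simulated data. Knockout-labelled libraries 1 and 2 were averaged. Same-numbered wild-type and knockout-labelled libraries did not deviate together, so no block was used. A group with 3 reads or fewer in every library was taken as at the floor. Summed TPM, ratios, medians and counts of members are described with no test. The poly(A) table was not retested, has no value per library and therefore no SD or n.

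In each subtype the 2 members highest in mean TPM over the 6 libraries, and the 2 largest rises and 2 largest falls past the threshold with a mean of at least 5 TPM, are given by library. From each list the 2 largest rises and falls are named with SLBP and NPAT (1 result is not reported here), and in the poly(A) table the called members and the highest of each subtype. Other genes named (members outside this rule, HINFP, POU2F1, CPSF3, SMG1, COL1A1, THY1, KRT8, KRT18, SNAP25) were chosen after their values were seen. The symbols H3C2, H3C3, H2AC18 and H2AC19 were not analysed here. Promoter letters are from RefSeq GRCh38.p14 and stem-loops from GENCODE 29 transcripts. Depth was 266157 to 1267171 reads, and 45 of 52 tested members had at least 10 reads per library on average. Intervals and floors cover counting error only. Alternatives were pseudocounts of 0.1 and 5, other filters, scalings and thresholds, 6 separate libraries, a replicate block, each library left out, removal of the GC trend, and limma-voom on recovered reads. Other steps used Python 3.11.15, numpy 2.4.6, pandas 2.3.3, scipy 1.17.1 and matplotlib 3.10.9.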

Additional observations from a re-analysis of the deposited data

How the results depend on the processing

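The 31 higher and 9 lower calls after rRNA depletion stayed within 1.5 times these counts under each alternative except leaving out knockout-labelled library 3, and no called member changed direction in any fit. Leaving out 1 library at a time gave 9 to 32 members called higher, 3 to 9 called lower and medians of 1.19 to 1.40. The low end of both counts came from leaving out knockout-labelled library 3, where 28 of the 40 calls were lost; that fit rests on 1 averaged sample with the label, assumed to vary like the wild type. Leaving out any other library lost H2AC11, H4C1 or H4C5 and no other call. Compared with 1.35, the median was 1.41 and 1.18 with pseudocounts of 0.1 and 5, 1.01 with median ratio scaling, 1.23 with quantile normalization, 1.28 with 6 separate libraries, 1.25 with the GC trend removed and 0.85 with limma-voom. Median ratio scaling gave log2 ratios of summed TPM of -1.08 for H1, -0.021 for H2A (0.33 as deposited), 2.04 for H2B, 0.97 for H3 and -1.67 for H4. Leaving out 1 library at a time gave -1.39 to -1.31 for H4. The cause of these shifts was not tested. The METTL3 change became -0.29 with the GC trend removed. The authors' deposited table called 3 members lower, against 1 at an adjusted p under 0.01 and 1 when the log2 fold change had to reach 1 in size.

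Same-numbered libraries share only a number: their deviations from the group means correlated at 0.02, -0.02 and 0.01. A fit with the replicate number as a block gave 33 members higher, 11 lower and a median of 1.28, against 33, 10 and 1.28 without the block over the same 6 libraries. Depth limits single copies: 7 of the 52 tested members had fewer than 10 reads per library on average, and for them a change of moderate size was not detectable.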
